A study of Mus musculus with 10 samples.

Results

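The genes described here encode the subunits of the TAL1-LMO2-LDB1 complex. They were selected by symbol and are Tal1, Lyl1, Lmo2, Cbfa2t3, Ldb1, Lmo4, Tcf3 and Tcf12, which makes 8 genes of the 15686 in the expression matrix deposited by the authors. All 8 also passed the filter on low counts used for the tests. 4 of them, Tal1, Lyl1, Lmo2 and Cbfa2t3, are known as lineage-restricted subunits, and the other 4, Ldb1, Lmo4, Tcf3 and Tcf12, are known as widely expressed or ubiquitous ones.

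TAL1 and LYL1 are related basic helix-loop-helix factors that bind DNA at E-box motifs only as dimers with an E protein such as TCF3 or TCF12. LMO2 is a LIM-domain protein without DNA contacts of its own, which joins the dimer to LDB1 and to GATA factors, and LDB1 in turn self-associates and can hold distant regulatory elements together. CBFA2T3, also known as ETO2 or MTG16, is a corepressor that joins this assembly. The complex is known for its roles in the specification of blood from mesoderm and in the erythroid and megakaryocytic lineages.

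Nuclear RNA was sequenced from HM-1 mouse embryonic stem cells, a line used for gene targeting, and from their progeny in serum culture. ES cells were the undifferentiated stage, HB cells were FLK1+ hemangioblast cells selected from embryoid bodies after 3 days, and HB cells were cultured for a further 2.5 days to give HE1, HE2 and HP. HE1 was sorted as KIT+ TIE2+ CD41- hemogenic endothelium, HE2 as KIT+ TIE2+ CD41+ hemogenic endothelium, and HP as KIT+ TIE2- CD41+ hematopoietic progenitors. Each of the 5 stages had 2 libraries, all from the same cell line. According to the study's methods, the ES medium held LIF. The culture of HB cells that gave HE1, HE2 and HP had VEGF, IL-6 and conditioned medium added. HB therefore differed from ES, and HE1 from HB, in time, culture and medium as well as in selection. HE1, HE2 and HP shared the time, culture and medium and differed in the sorting gate. With 2 libraries per stage, p-values measured only the spread between these libraries.

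The 10 libraries held between 24920434 and 58782055 counts on genes, and levels are given as CPM, in which a gene's count is divided by the size of its library, scaled by the TMM method. A count of 3, taken as the floor of detection, corresponded to between 0.0532 and 0.126 CPM. The log2 CPM of the replicates correlated with Pearson's r between 0.967, in HE1, and 0.994, in ES. The ES cell and endothelial markers followed the labels: the 5 ES cell markers summed to 1997 and 1919 CPM in ES and to at most 98.7 CPM elsewhere, and the 5 endothelial markers were highest in HE1. The 5 blood markers did not separate HP from HE2, with sums of 805 and 1029 CPM in HE2 and 966 and 781 CPM in HP. HE1 replicate 2 stood apart from HE1 replicate 1, with ES cell markers at a sum of 66.9 against 6.31 CPM and endothelial markers at 1790 against 2985 CPM. The 5 smooth muscle and cardiac markers summed to 998 against 634 CPM. Among them, Tnnt2, a cardiac gene, was at 74.2 against 16 CPM, while Nkx2-5, another, was at 4.03 against 4.33 CPM. Since 7 of the 8 genes below, all but Tcf3, were lower in replicate 2 than in replicate 1 of HE1, calls that rest on HE1 are also described without it, and the part of these other transcripts in them was not tested.

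The genes lie on 7 chromosomes of the mm10 build. Tal1 spans chr4:115056426-115071755 on the plus strand and Lyl1 chr8:84701449-84704940 on the plus strand, while Cbfa2t3 lies on the minus strand of the same chromosome as Lyl1, at chr8:122625141-122699109. Lmo2 spans chr2:103957986-103981878 on the plus strand. The ubiquitous subunits are all on the minus strand, Ldb1 at chr19:46031570-46045214, Lmo4 at chr3:144188530-144205220, Tcf3 at chr10:80409514-80433647 and Tcf12 at chr9:71842688-72111871. No exon of the 8 genes overlapped an exon of another gene on its own strand. Exons of Lyl1, Cbfa2t3 and Ldb1 shared 229, 295 and 177 bases with genes on the opposite strand, and the counting was by strand.

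RefSeq start sites were available for 7 of the 8 genes, all except Lmo2. The 250 bases upstream of the first listed start are shown for the 3 restricted subunits that have one and for Ldb1, the subunit whose stage means differed least, to set their promoters side by side. Capitals mark GATAA, the core of a GATA site, read on either strand (as TTATC on the other), and CANNTG, the E-box that helix-loop-helix dimers bind. No match of one motif overlapped a match of the other.
Tal1: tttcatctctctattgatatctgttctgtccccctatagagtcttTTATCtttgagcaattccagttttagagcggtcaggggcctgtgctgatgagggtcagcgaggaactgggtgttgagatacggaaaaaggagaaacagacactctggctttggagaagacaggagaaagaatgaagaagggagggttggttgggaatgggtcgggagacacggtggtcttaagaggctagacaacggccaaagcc
Lyl1: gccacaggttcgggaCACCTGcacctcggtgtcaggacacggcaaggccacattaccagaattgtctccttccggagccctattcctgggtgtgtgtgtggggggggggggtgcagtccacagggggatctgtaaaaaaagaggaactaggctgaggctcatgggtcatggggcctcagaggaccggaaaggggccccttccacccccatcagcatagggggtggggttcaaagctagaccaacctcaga
Cbfa2t3: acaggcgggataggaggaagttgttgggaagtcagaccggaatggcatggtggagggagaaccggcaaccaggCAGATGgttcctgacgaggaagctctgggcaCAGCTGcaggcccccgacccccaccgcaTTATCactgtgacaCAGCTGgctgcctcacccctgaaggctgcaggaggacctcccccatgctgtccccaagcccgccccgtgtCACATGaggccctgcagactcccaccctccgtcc
Ldb1: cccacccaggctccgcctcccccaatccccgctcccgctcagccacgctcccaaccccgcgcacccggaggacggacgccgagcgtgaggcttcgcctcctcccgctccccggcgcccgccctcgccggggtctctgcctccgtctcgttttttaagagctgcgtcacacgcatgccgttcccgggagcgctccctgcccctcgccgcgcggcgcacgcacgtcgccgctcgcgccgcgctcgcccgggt
These windows are given 5' to 3' on the strand of the gene in GRCm38.p6, at chr4:115056176-115056425 (plus) for Tal1, chr8:84701207-84701456 (plus) for Lyl1, chr8:122699110-122699359 (minus) for Cbfa2t3 and chr19:46045312-46045561 (minus) for Ldb1. The Tal1 window held 1 GATAA and 0 CANNTG matches, the Lyl1 window 0 and 1, the Cbfa2t3 window 1 and 4, and the Ldb1 window 0 and 0. Among the 32817 windows of all genes, 22.6% held GATAA, 66.2% held CANNTG and 15.9% held both, as the Cbfa2t3 window did. The GC content was 48.8% for Tal1, 60% for Lyl1, 64% for Cbfa2t3 and 76% for Ldb1, against a median of 52.4% over all windows. The counts depend on the start used. The second listed start had 0 GATAA and 0 CANNTG matches upstream for Tal1 and 0 and 1 for Cbfa2t3, and the third listed start of Ldb1 had 2 and 1. Matches are letters in a window and not measured sites.

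Tal1, the founding helix-loop-helix subunit, was at 4.98 and 4.7 CPM in the ES libraries and at 145 and 171 CPM in HB. In HE1 it was at 185 and 109 CPM, in HE2 at 277 and 374 CPM, and in HP at 422 and 351 CPM. The ES libraries were far below all others, HB and HE1 overlapped, and so did HE2 and HP, so that the libraries fell into 3 groups without overlap. The rise from ES to HB was 32.5-fold (log2 fold change 5.03, SE 0.29, adjusted p = 1.21e-06 by edgeR's quasi-likelihood F test, adjusted by the Benjamini-Hochberg method over 22596 genes, as for all adjusted p-values here). A gene was called when its adjusted p was under 0.05 and its change at least 2-fold, the thresholds of the study. From HB to HE1 the log2 fold change was -0.10 (SE 0.24, adjusted p = 0.769), and from HE1 to HE2 Tal1 rose 2.21-fold (log2 1.15, SE 0.24, adjusted p = 0.0189). The latter call was lost without HE1 replicate 2 (log2 0.81, adjusted p = 0.0788), without HE2 replicate 2 (log2 0.93, adjusted p = 0.151) and with only the 4 libraries compared (adjusted p = 0.0625), in a range from 7.5e-09 to 0.151 over 18 alternatives. In bulk RNA, fewer cells with a transcript and less of it per cell cannot be told apart.

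Lyl1, the close relative of Tal1, was at 0.585 and 0.172 CPM in ES, from 33 and 6 counts, which is above the floor but below the level of 9 CPM that the study took as expressed. It reached 10.6 and 9.77 CPM in HB, 36.6 and 21.3 CPM in HE1, 95.1 and 142 CPM in HE2, and 143 and 90.4 CPM in HP. Unlike those of Tal1, the Lyl1 levels of ES, HB, HE1 and HE2 lay in that order with no overlap between libraries, and they overlapped only between HE2 and HP. Lyl1 rose 24.5-fold from ES to HB (log2 4.62, SE 0.47, adjusted p = 3.76e-05), 2.83-fold from HB to HE1 (log2 1.50, SE 0.36, adjusted p = 0.00998) and 4.11-fold from HE1 to HE2 (log2 2.04, SE 0.35, adjusted p = 0.00918). Of these 3 calls, only the one from ES to HB held whichever library was omitted. The call from HB to HE1 held without HE1 replicate 2 (log2 1.85) and was lost without HE1 replicate 1 (log2 1.02, adjusted p = 0.0604), HB replicate 1 (0.0556) or HB replicate 2 (0.0819), in a range from 1.25e-11 to 0.0819. That from HE1 to HE2 was lost without HE1 replicate 2 (log2 1.70, adjusted p = 0.0599) or HE2 replicate 2 (0.0535), in a range from 2.74e-21 to 0.0599. The paralogs were both called in the first step, after which Tal1 was at 40.8% of its highest stage mean in HB and Lyl1 at 8.6%. Per kilobase of exon, the Tal1 level was 6.31 and 8.13 times that of Lyl1 in HB, 2.35 and 2.38 times in HE1, 1.35 and 1.22 times in HE2, and 1.37 and 1.8 times in HP. The ratio was thus lower in HE1 than in HB and lower again in HE2, with no overlap between the libraries of these stages (a description without a test). Tal1 remained above Lyl1 in both HP libraries.

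**Figure D1:**
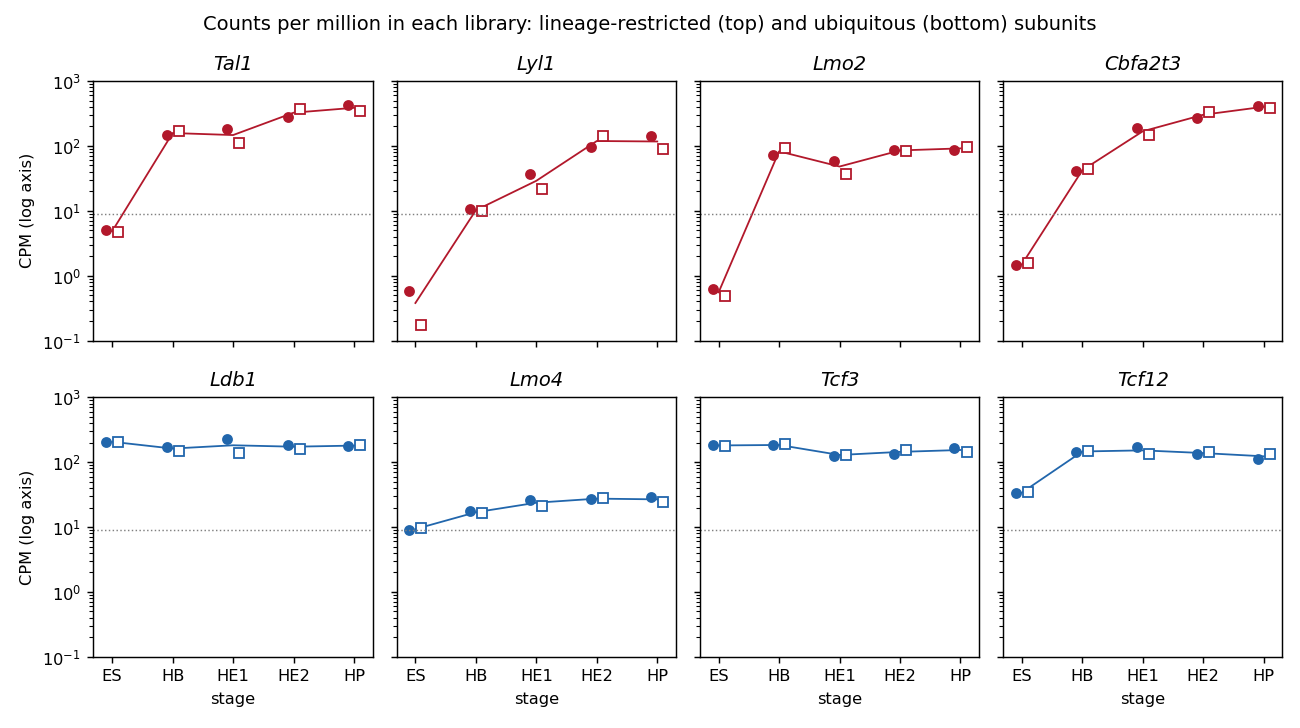
CPM of each subunit in each library (vertical log axis) by stage (horizontal axis), with replicate 1 as filled circles, replicate 2 as open squares, a line through the stage means and a dotted line at 9 CPM, the level the study took as expressed. All 4 restricted subunits (top) lie below the dotted line in ES and above it from HB on, whereas the 4 ubiquitous subunits (bottom) lie above it in all 10 libraries.

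Lmo2, the LIM-only bridge, showed the largest change of the 8 genes from ES to HB. It was at 0.62 and 0.487 CPM in ES and at 73.7 and 91.4 CPM in HB, a 145-fold rise (log2 7.18, SE 0.29, adjusted p = 3.57e-07). In HE1 it was at 58.7 and 37.4 CPM, below both HB libraries, and it was at 87.5 and 82.9 CPM in HE2 and 86.7 and 96.5 CPM in HP. Lmo2 was therefore near its final level already in HB, at 90.1% of the HP mean, with a dip in HE1. The dip passed the adjusted p but not the 2-fold threshold, with log2 -0.78 from HB to HE1 (SE 0.21, adjusted p = 0.0167) and log2 0.83 from HE1 to HE2 (SE 0.21, adjusted p = 0.0322). The adjusted p of the dip was lost with several single libraries left out. From HB to HE1 it was 0.0813 without HE1 replicate 2 (log2 -0.49) and 0.112 without HB replicate 2, the highest of 18 alternatives, of which the lowest was 0.000498. From HE1 to HE2 it was 0.14 without HE1 replicate 2 (log2 0.54), 0.141 without HE2 replicate 2, 0.0527 without HE2 replicate 1 and 0.0786 with only the 4 libraries compared, in a range from 0.000289 to 0.141. Without HE1 replicate 1, in contrast, both exceeded 2-fold, at -1.19 and 1.21.

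Cbfa2t3, the corepressor subunit, had a higher mean at each stage than at the one before. It was at 1.44 and 1.55 CPM in ES, 40.5 and 43.9 CPM in HB, 190 and 145 CPM in HE1, 270 and 334 CPM in HE2, and 417 and 384 CPM in HP. It was the only one of the 8 genes for which no neighbouring stages overlapped in the order of levels. The change was 28.3-fold from ES to HB (log2 4.82, SE 0.21, adjusted p = 4.05e-07) and 3.97-fold from HB to HE1 (log2 1.99, SE 0.18, adjusted p = 3.6e-05), where it was log2 2.18 and still called without HE1 replicate 2. From HE1 to HE2 it was 1.8-fold (log2 0.85, SE 0.17, adjusted p = 0.015), short of the fold threshold, and from HE2 to HP 1.33-fold (log2 0.41, SE 0.17, adjusted p = 0.548). The adjusted p from HE1 to HE2 was 0.0711 without HE1 replicate 2, 0.12 without HE2 replicate 2 and 0.0751 with only the 4 libraries compared, in a range from 4e-05 to 0.12 over the 18 alternatives. Cbfa2t3 was thus at 10.5% of its HP mean in HB, when Lmo2 was at 90.1% and Tal1 at 40.8% of theirs.

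Ldb1, the self-associating scaffold that binds the LIM domains of LMO2, did not pass the test in any of the 6 comparisons. It was at 207 and 205 CPM in ES, 174 and 150 CPM in HB, 224 and 140 CPM in HE1, 185 and 160 CPM in HE2, and 176 and 183 CPM in HP. Its highest stage mean was 1.27 times its lowest, and all stages overlapped their neighbours in the order of levels. The HE1 libraries alone spanned more than this, from 140 to 224 CPM. The largest of its fitted changes was log2 -0.35 from ES to HB (SE 0.20, adjusted p = 0.199, between 0.0184 and 0.536 over the 18 alternatives). It passed the adjusted p, though not the fold threshold, with only the 4 libraries compared (0.0184) and without HE1 replicate 2 (0.0475).

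Lmo4, a LIM-only relative of Lmo2 that also binds LDB1, was at 9.06 and 9.55 CPM in ES, just above the level taken as expressed. It was at 17.4 and 16.4 CPM in HB, 26 and 21.4 CPM in HE1, 26.8 and 28 CPM in HE2, and 29.4 and 24.1 CPM in HP. The ES libraries were below all others and the HB libraries below those of the later stages, and the HP libraries overlapped those of HE1 and of HE2. Its rise from ES to HB was 1.82-fold (log2 0.87, SE 0.18, adjusted p = 0.00297), and from ES to HP 2.87-fold (log2 1.52, SE 0.18, adjusted p = 5.47e-05), which was called. Per kilobase of exon, Lmo2 was at 0.112 and 0.0832 times Lmo4 in ES, at 6.88 and 9.06 times in HB, at 3.68 and 2.85 times in HE1 and at between 4.81 and 6.53 times in HE2 and HP. The order of the LIM-only genes was therefore opposite in ES and in the other stages.

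Tcf3 and Tcf12 encode E proteins, the obligate partners of TAL1 and LYL1. Tcf3 was at 183 and 179 CPM in ES, 181 and 188 CPM in HB, 126 and 131 CPM in HE1, 135 and 153 CPM in HE2, and 167 and 141 CPM in HP. ES and HB overlapped and were above the rest, and the fall from HB to HE1 was 1.44-fold (log2 -0.52, SE 0.14, adjusted p = 0.0171, and 0.0861 without HB replicate 2, the highest of the 18 alternatives, of which the lowest was 0.00231), under the fold threshold. Tcf12 was at 33.6 and 34.1 CPM in ES, 141 and 150 CPM in HB, 170 and 134 CPM in HE1, 133 and 142 CPM in HE2, and 112 and 134 CPM in HP. Tcf12 rose 4.3-fold from ES to HB (log2 2.11, SE 0.16, adjusted p = 6.02e-06), and each later stage overlapped its neighbour in the order of levels. The 4 ubiquitous subunits were above 9 CPM in all 10 libraries, whereas the restricted ones were above the floor but under 9 CPM in ES. The level of the ubiquitous subunits was not constant, since Tcf12 and Lmo4 were higher in HP than in ES (Tcf12 by log2 1.86, SE 0.16, adjusted p = 6.87e-06).

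The lineage-restricted and ubiquitous subunits were next compared as groups, as a description without a test because the members were chosen. Per kilobase of exon, the 4 restricted genes summed to 1.88 and 1.57 CPM per kb in ES and 77.1 and 91.3 CPM per kb in HB. The sum was 110 and 70 CPM per kb in the HE1 libraries, 183 and 234 CPM per kb in those of HE2, and 257 and 215 CPM per kb in those of HP. The 4 ubiquitous genes summed to 95.1 and 93.9 CPM per kb in ES, 96.5 and 93.5 CPM per kb in HB, 98.2 and 77.5 CPM per kb in HE1, 89.7 CPM per kb in both HE2 libraries, and 95.1 and 90.1 CPM per kb in HP. Per kilobase, the restricted sum was thus below the ubiquitous sum in ES and HB, on either side of it in the HE1 libraries, and above it in HE2 and HP. This order depends on the exon lengths used. As a difference of log2 fold changes, the mean of the restricted genes exceeded that of the ubiquitous genes by 4.75 from ES to HB, by 0.60 from HB to HE1, by 1.18 from HE1 to HE2 and by 0.20 from HE2 to HP. The SD of this difference within stages was 0.21, so that the last step lay within the spread between libraries and the others did not. Across all alternatives the first 3 differences ranged from 4.59 to 5.12, from 0.41 to 0.75 and from 1.03 to 1.37.

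**Figure D2:**
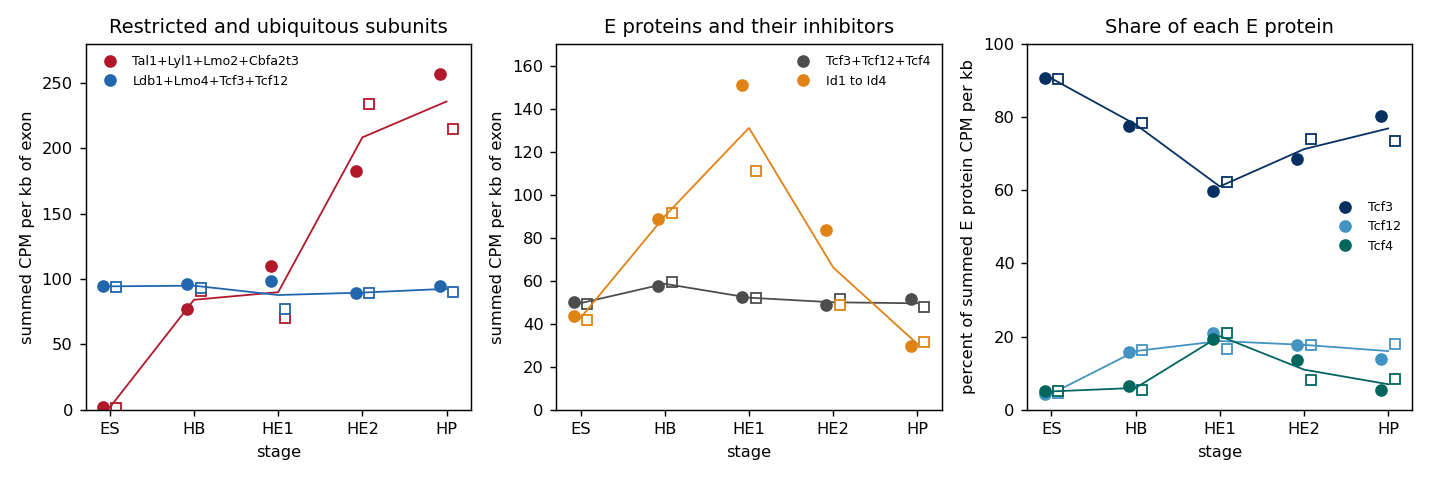
Left, summed CPM per kilobase of exon of the 4 restricted (red) and 4 ubiquitous (blue) subunits by stage; middle, the same sum for the E protein genes Tcf3, Tcf12 and Tcf4 (grey) and for Id1 to Id4 (orange); right, the percent of the E protein sum in each gene. Circles are replicate 1, squares replicate 2 and lines join stage means. The restricted sum goes from 1.57 in the lowest library to 257 CPM per kb in the highest, while the ubiquitous sum stays between 77.5 and 98.2, and the Id sum is highest in HE1.

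Ratios within the complex followed from these levels. Lmo2 was at 0.00636 and 0.00505 times Ldb1 per kilobase of exon in ES, and at 0.902 and 1.29 times in HB. It was at 0.558 and 0.568 times in HE1 and at between 1.01 and 1.12 times in HE2 and HP. RNA of the bridge and of the scaffold was thus at about equal level per length in HB, HE2 and HP, and lower for the bridge in HE1. The sum of Tal1 and Lyl1 was at 0.0285 and 0.0236 times that of the 3 E protein genes in ES, 0.665 and 0.737 times in HB, 1.15 and 0.683 times in HE1, 2.27 and 3.03 times in HE2, and 3.25 and 2.62 times in HP. In HE2 and HP, the RNA of the restricted helix-loop-helix subunits per kilobase of exon therefore exceeded that of their partners in all 4 libraries. This order depends on the exon lengths used. In CPM, HE2 replicate 1 had Tal1 at 277 and Lyl1 at 95.1, against Tcf3 at 135, Tcf12 at 133 and Tcf4 at 182. In that library the E protein CPM were higher in sum, unlike in the other HE2 and HP libraries.

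**Figure D3:**
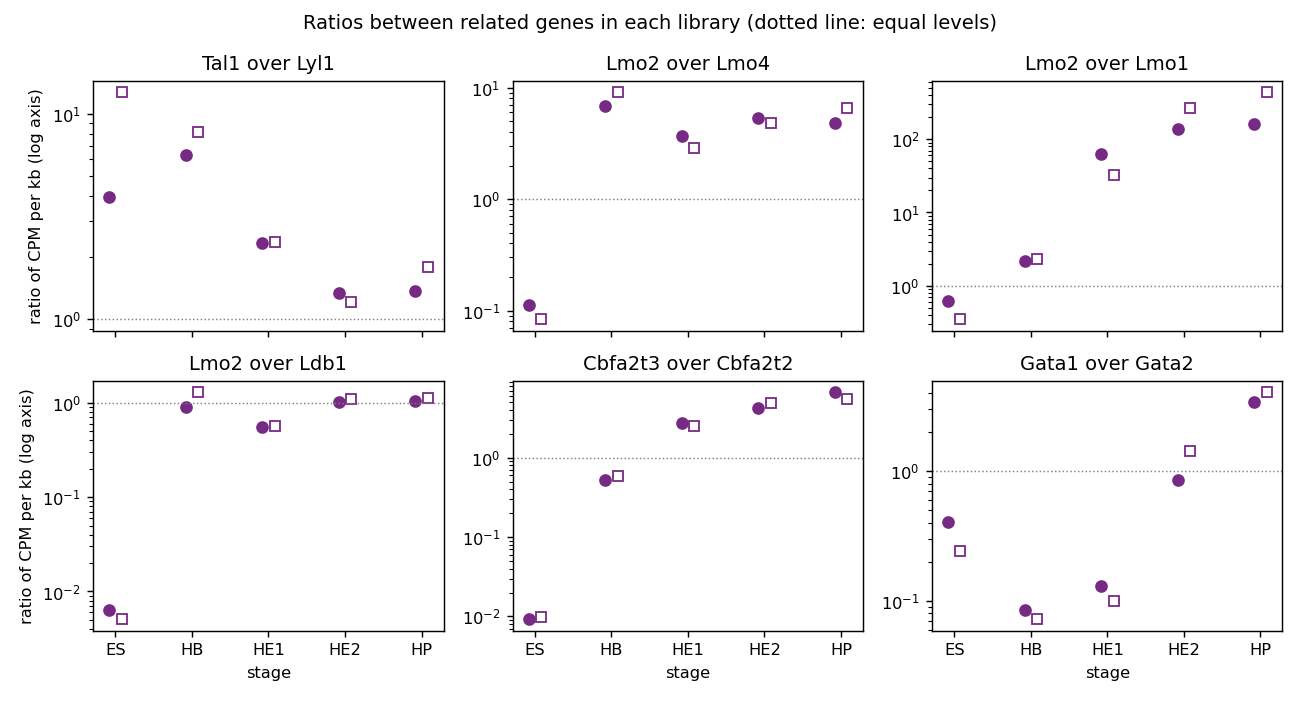
Ratios of CPM per kilobase of exon between related genes (vertical log axis) in each library by stage (horizontal axis), with replicate 1 as circles, replicate 2 as squares and a dotted line at equal levels. Tal1 over Lyl1 is lower in HE2 than in HB, Cbfa2t3 over Cbfa2t2 crosses the line between HB and HE1, Gata1 over Gata2 is above it in both HP libraries, and the ES ratio of Tal1 to Lyl1 differs most between replicates because Lyl1 had 33 and 6 counts there.

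From ES to HB, 5 of the 8 genes were called higher (Tal1, Lyl1, Lmo2, Cbfa2t3 and Tcf12) and 0 lower. Of all 22596 genes tested, 11.5% were called higher and 17.3% lower in that comparison. The median log2 fold change was 4.92 over the restricted genes, 0.45 over the ubiquitous genes and 0.00 over all genes. From HB to HE1, 2 were called higher (Lyl1 and Cbfa2t3) and 0 lower, against 12.7% higher and 8.19% lower of all genes, and 2 of 8 genes are too few to read against that background. From HE1 to HE2, 2 were called higher (Tal1 and Lyl1) and 0 lower, against 3.26% and 5.38% of all genes. With no fold threshold, the 4 restricted genes and 0 of the 4 ubiquitous genes had an adjusted p under 0.05, against 13.2% of all genes in either direction.

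The step from HE1 to HE2 depended on single libraries. Without HE1 replicate 2, 0 of the 8 genes were called, against 1.56% of all genes called higher. Without HE2 replicate 2 the count was also 0, against 1.33%. Without HE1 replicate 1 it was 4, namely all the restricted genes, against 5.61%. The number of restricted genes with an adjusted p under 0.05 was 0 without HE1 replicate 2 and without HE2 replicate 2, 1 with only the 4 libraries compared, 3 without HE2 replicate 1 and 4 under the other alternatives. For HB to HE1, leaving out either HB library left 1 call, Cbfa2t3, against 7.65% (without replicate 1) and 6.03% (without replicate 2) of all genes called higher. Leaving out HE1 replicate 1 gave 1 call higher, Cbfa2t3, and 1 lower, Lmo2, against 13.9% and 8.93%.

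From HE2 to HP none of the 8 genes was called, and none of all genes either (0%). At an unadjusted p under 0.05 edgeR gave 1783 of all genes and 1 of the 8, Cbfa2t3. Limma-voom called 35 genes higher and 27 lower and DESeq2 108 and 193, with 0 of the 8 in both. Over the wider step from HE1 to HP, which shares its HE1 libraries with the comparisons above, 3 were called higher (Tal1, Lyl1 and Cbfa2t3) and 0 lower, against 5.35% higher and 11.2% lower of all genes. Tal1 rose 2.63-fold (log2 1.40, SE 0.25, adjusted p = 0.00294), Lyl1 4.04-fold (log2 2.01, SE 0.35, adjusted p = 0.00292) and Cbfa2t3 2.39-fold (log2 1.26, SE 0.17, adjusted p = 0.000844), and Lmo2 missed the fold threshold at 1.91-fold (log2 0.93, SE 0.21, adjusted p = 0.00964). The same 3 genes were called without HE1 replicate 2, against 3.87% of all genes called higher, with log2 changes of 1.06, 1.67 and 1.08. From ES to HP, 6 were called higher, all but Ldb1 and Tcf3, and 0 lower, against 16.7% and 21.9% of all genes.

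**Figure D4:**
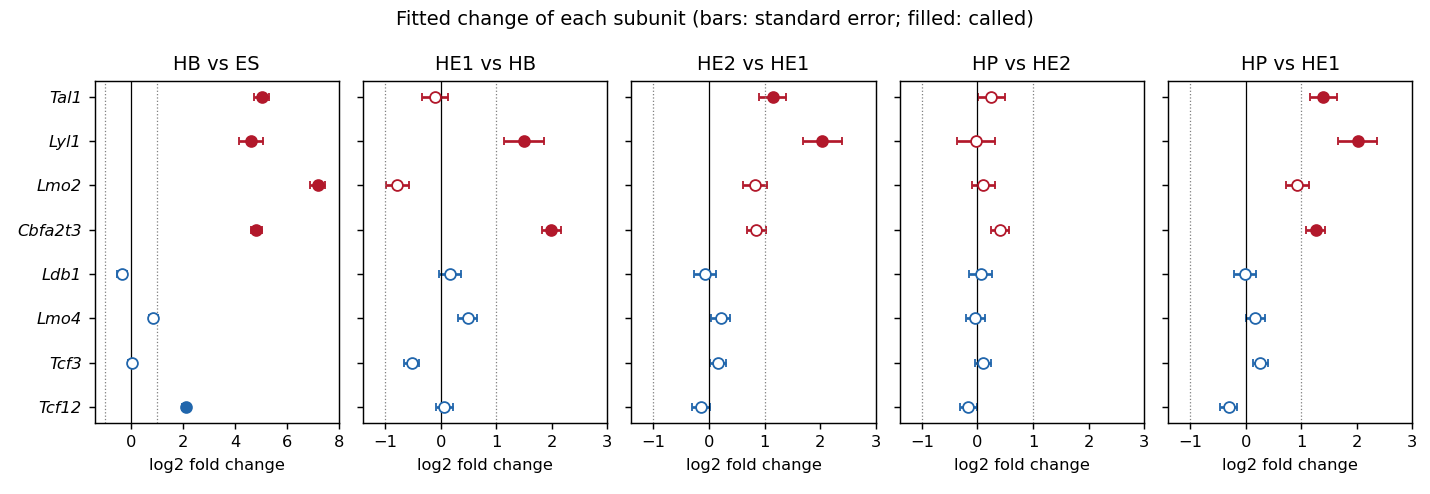
Fitted log2 fold change (horizontal axis, wider in the first panel) of each subunit in 5 comparisons, with restricted subunits in red and ubiquitous subunits in blue. Bars are 1 standard error, filled points were called and dotted lines mark a 2-fold change. The restricted subunits lie between 4.62 and 7.18 from ES to HB, and every subunit lies within the dotted lines from HE2 to HP.

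Markers of blood cell types differed between the same stages. The 5 erythroid markers summed to 495 and 239 CPM in HE1, 2016 and 1567 CPM in HE2 and 4323 and 2275 CPM in HP, with 5 of 5 at 9 CPM or more in HE2 and HP. The 5 megakaryocyte markers summed to 13.5 and 14 CPM in ES and 12.5 and 14.8 CPM in HB. They went from 102 and 70.6 CPM in HE1 to between 1107 and 1671 CPM in HE2 and HP, almost all of it Itgb3, while Pf4 was at most 3.08 CPM. From ES to HB, the erythroid sum went from 2.94 and 3.35 to 9.91 and 11 CPM. The hemangioblast and mesoderm sum went from 9.8 and 10.8 to 1427 and 1750 CPM in that step. The 5 macrophage markers summed to 51.5 and 27.8 CPM in HE1, 43.6 and 32.8 CPM in HE2 and 38.2 and 45.4 CPM in HP, which overlapped. Within that sum, Lyz2 (1.05 and 1.98 CPM in HE1, 21.1 and 12.3 CPM in HP), Csf1r (0.378 and 1.29, then 5.93 and 9.37 CPM) and Adgre1 (0.21 and 0.231, then 1.12 and 2.26 CPM) were higher in HP without overlap, while Mrc1 was lower (42.3 and 10.6, then 1.12 and 7.59 CPM) and Cd68 overlapped. Over the same stages, the endothelial sum was 2985 and 1790 CPM in HE1 and 437 and 495 CPM in HP. The 5 smooth muscle and cardiac markers summed to 29.5 and 28 CPM in HB and 634 and 998 CPM in HE1. Their sum was 649 and 402 CPM in HE2 and 750 and 360 CPM in HP, and from HE1 on it was mostly Acta2 and Tagln. In HE1 replicate 2 the erythroid and megakaryocyte sums were also the lower of the pair, as were Tal1, Lyl1, Lmo2 and Cbfa2t3. The part of cell composition in the changes of the 8 genes was not tested.

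Relatives and partners of the complex were then taken from 11 lists of 44 genes, of which 37 passed the filter on low counts. The other 7, Nhlh1, Nhlh2, Lmo3, Lhx3, Lhx4, Lhx8 and Lhx9, never exceeded 0.528 CPM. Of the 37 genes, 22 were called higher and 1 lower from ES to HB, 11 and 5 from HB to HE1, 11 and 4 from HE1 to HE2, 0 and 0 from HE2 to HP, and 12 and 13 from HE1 to HP, by edgeR. The shares of all genes called higher and lower were 11.5% and 17.3%, 12.7% and 8.19%, 3.26% and 5.38%, 0% in either direction, and 5.35% and 11.2% in the same order. From HE2 to HP, 17 of the 37 had an unadjusted p under 0.05 by edgeR, against 1783 of all 22596 genes. In that step limma-voom called 0 higher and 1 lower, against 0.155% and 0.119% of all genes, and DESeq2 2 and 4, against 0.478% and 0.854%. EdgeR with no filter called 3 and 5, against 0.372% and 0.997%. It called 0 and 2 with HE1 replicate 1 left out, against 0.0985% and 0.176%, 0 and 1 with HE1 replicate 2 left out, against 0.0975% and 0.153%, and 0 and 3 with HE2 replicate 2 left out, against 0.205% and 1.95%. Without HE1 replicate 2, the counts were 16 and 5 from HB to HE1, against 9.6% and 7.22% of all genes, 8 and 1 from HE1 to HE2, against 1.56% and 1.1%, and 11 and 13 from HE1 to HP, against 3.87% and 6.86%. Other settings also moved the lower counts by over 1.5 times. From ES to HB the count was 3 with DESeq2 and 0 with total counts as library sizes, against 3493 and 3563 of 22596 genes. It was 2 with no filter on low counts (4347 of 39019) and with library sizes without the 20 top genes (3862 of 22568). A replicate block (3710 of 22596) and only the 4 libraries compared (4392 of 20729) also gave 2. From HB to HE1 the count was 3 without HB replicate 1, against 6.74% of all genes. Between HE1 and HE2 it was 0 without HE2 replicate 2, against 0.393%, and 7 without HE1 replicate 1 or HE2 replicate 1, against 12% and 8.67%. In the same step it was 9 with no filter on low counts (7.34% of all genes) and with the genes of the authors' matrix (7.76%), 8 with DESeq2 (7.94%), 2 with the replicate block (3.39%) and without any 1 of the ES and HB libraries (2.81% to 2.89%), and 0 with only the 4 libraries compared (0.903%). From HE1 to HP it was 6 without HP replicate 1, against 4.66%.

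Among the E proteins, Tcf4 differed in timing from Tcf3 and Tcf12. It was at 68.6 and 67.6 CPM in ES, 103 and 89 CPM in HB, 278 and 296 CPM in HE1, 182 and 116 CPM in HE2, and 77.9 and 110 CPM in HP, with the HE1 libraries above all others. Tcf4 rose by log2 1.58 from HB to HE1 (SE 0.23, adjusted p = 0.000604) and fell by 1.61 on the log2 scale from HE1 to HP (SE 0.23, adjusted p = 0.000959), and both were still called without HE1 replicate 2, at 1.54 and -1.57. Per kilobase of exon, Tcf3 made up 90.7% and 90.5% of the summed E protein RNA in ES, 59.7% and 62.4% in HE1 and 80.4% and 73.4% in HP. These shares depend on the exon lengths used. In CPM, Tcf3 was the lowest of the 3 genes in both HE1 libraries, at 126 and 131 CPM, and the highest in ES and HP. The share of Tcf3 was thus lowest where that of Tcf4 was highest, at 19.4% and 20.9% in HE1, while the sum of the 3 genes stayed between 47.6 and 59.5 CPM per kb in all libraries.

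The Id genes encode inhibitors that bind E proteins without binding DNA. Id1 was at 91.5 and 72.1 CPM in HE1, 46.9 and 30.7 CPM in HE2 and 22.2 and 23.2 CPM in HP, and fell by 1.85 on the log2 scale from HE1 to HP (SE 0.21, adjusted p = 0.000326). Id3 was at 13.1 and 13.4 CPM in ES, 66.4 and 81 CPM in HB, 110 and 78.7 CPM in HE1, 64.2 and 30 CPM in HE2 and 11.9 and 15.1 CPM in HP. Id3 thus rose and fell again, with log2 2.47 from ES to HB (SE 0.32, adjusted p = 0.000181) and -2.81 from HE1 to HP (SE 0.33, adjusted p = 0.000398). Of the 4 Id genes, 3 were called lower from HE1 to HP, against 11.2% of all genes, and 2 without HP replicate 1, where Id4 was lost, against 4.66%. Without HE1 replicate 2, Id1 was at -2.01 and Id3 at -3.03 in that comparison, both still called. Id2 had log2 -1.07 (adjusted p = 0.0617, between 0.002 and 0.643 over the 18 alternatives), short of the threshold. It was called lower, so that all 4 were, with DESeq2 (0.0241), total counts as library sizes (0.0499), no filter on low counts (0.002), the genes of the authors' matrix (0.0442) and without HE1 replicate 2 (log2 -1.62, adjusted p = 0.00261), and was at log2 -0.16 without HE1 replicate 1. The Id sum was 2.89 and 2.14 times the E protein sum per kilobase of exon in HE1 and 0.574 and 0.666 times in HP.

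Of the 6 LIM-only, LDB and helix-loop-helix relatives, 3 passed the filter on low counts. Lmo1, which can stand in for LMO2 in such complexes, was at 0.709 and 1 CPM in ES, 24.1 and 28.2 CPM in HB and below 1 CPM in all later libraries. Its change was log2 4.94 from ES to HB (SE 0.42, adjusted p = 1.21e-05) and -5.11 from HB to HE1 (SE 0.43, adjusted p = 3.11e-05), where it was -5.27 and still called without HE1 replicate 2. HB was therefore the only stage with more than 1 CPM of Lmo1 in both libraries, and Lmo2 was at 2.19 and 2.32 times Lmo1 per kilobase of exon there, against 32.5 times or more from HE1 on. Tal2, a relative of Tal1, was highest in HB too, at 3.34 and 3.29 CPM, which is under the level taken as expressed, and its call from HB to HE1 (log2 -1.66, adjusted p = 0.0142, between 0.00571 and 0.0739 over the alternatives) was lost without either HB library. Ldb2, the relative of Ldb1, had 3 and 2 counts in ES, and was at 4.13 and 4.9 CPM in HB, 26.5 and 7.1 CPM in HE1, 20.2 and 16.2 CPM in HE2 and 3.49 and 4.54 CPM in HP. It was called higher in HP than in ES, and its call from HB to HE1 (log2 1.89) was lost without HE1 replicate 1 (log2 0.61), without either HB library and with limma-voom.

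The stabilisers of LDB1 are single-stranded DNA-binding proteins that protect it from degradation. Ssbp2 was at 3.65 and 4.04 CPM in ES, 10.1 and 8.05 CPM in HB, 18.7 and 12.8 CPM in HE1, 31.2 and 42.9 CPM in HE2 and 43.2 and 42.4 CPM in HP. Its change was log2 1.24 from ES to HB (adjusted p = 0.00211), 0.79 from HB to HE1 (adjusted p = 0.0256, between 0.00733 and 0.215 over the 18 alternatives), 1.23 from HE1 to HE2 (adjusted p = 0.0121, between 5.51e-06 and 0.0916) and 3.48 from ES to HP (adjusted p = 2.33e-06). The middle steps each lost the adjusted p with 1 library out, the first of them without HE1 replicate 1 (0.173), either HB library or either ES library and with limma-voom, and the second without HE1 replicate 2 (0.0689) or HE2 replicate 2. Ssbp3 rose once, from ES to HB (log2 1.16, SE 0.14, adjusted p = 9.56e-05). Ssbp4 was not called in any comparison. Rlim, a ubiquitin ligase that acts on LDB1, was lower in HP than in ES (log2 -1.11, SE 0.20, adjusted p = 0.00114).

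The ETO relatives of Cbfa2t3 moved differently from it. Cbfa2t2 was at 162 CPM in both ES libraries, 80 and 77.2 CPM in HB and between 59.3 and 73 CPM afterwards, and was called lower from ES to HB (log2 -1.04, SE 0.14, adjusted p = 0.000225), which total counts as library sizes took to log2 -0.96, short of the fold threshold. Per kilobase of exon, Cbfa2t3 was at 0.00916 and 0.00987 times Cbfa2t2 in ES, 0.523 and 0.588 times in HB, 2.75 and 2.53 times in HE1 and between 4.22 and 6.63 times in HE2 and HP. The family member with more RNA thus changed between HB and HE1. Runx1t1 was at 29 and 22.7 CPM in HE1, against 7.4 and 9.46 CPM in HB and 7.62 and 12.5 CPM in HP, and was called in both directions (log2 1.62, adjusted p = 0.00242, and -1.36, adjusted p = 0.00744). The second call was lost without HP replicate 1 (log2 -1.03, adjusted p = 0.076, the highest of the 18 alternatives, of which the lowest was 1.28e-05), and both calls held without HE1 replicate 2, at 1.78 and -1.53.

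GATA factors bind DNA beside the helix-loop-helix dimer. Gata2 rose with Tal1 and Lmo2 from ES to HB, from 4.01 and 4.42 to 65.8 and 81.6 CPM (log2 4.13, SE 0.29, adjusted p = 3.34e-06), and was at 48.8 and 35.9 CPM in HP. Gata1 was at 2.51 and 2.65 CPM in HB, 5.55 and 2.41 CPM in HE1, 24.5 and 38.5 CPM in HE2 and 75.8 and 65.7 CPM in HP, a rise of log2 4.17 from HE1 to HP (SE 0.38, adjusted p = 0.000109) that was 3.67 and still called without HE1 replicate 2. Per kilobase of exon, Gata1 was at 0.131 and 0.0998 times Gata2 in HE1, at 0.854 and 1.44 times in HE2 and at 3.44 and 4.05 times in HP. The order of the GATA genes thus turned over between HE1 and HP, across the step at which Tal1 and Lyl1 were called higher. Gata3 was highest in HB and HE1, at between 20.8 and 37.2 CPM, and fell by 1.57 on the log2 scale from HE1 to HP (SE 0.26, adjusted p = 0.00229), and by 1.83 without HE1 replicate 2, which was still called.

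LIM-homeodomain factors bind LDB1 through their LIM domains, as LMO2 does, and of 10 such genes 6 were tested. Lhx1, known from early mesoderm, was at 255 and 235 CPM in HB and at most 5.38 CPM in any other library, with log2 9.61 from ES to HB (SE 0.89, adjusted p = 2.07e-05). Isl1 was at 7.1 and 6.84 CPM in HB and below 1 CPM elsewhere (log2 4.17, SE 0.59, adjusted p = 0.000316). Lmo2, Lmo1 and Lhx1 were thus all above 9 CPM in HB. Lhx6 was highest in HE1 instead, at 16.3 and 9.77 CPM against 1.02 and 1.18 CPM in HB and 0.547 and 2.26 CPM in HP. It was called higher from HB to HE1 (log2 3.56, SE 0.78, adjusted p = 0.00672, between 7.71e-15 and 0.0535 over the alternatives) and lower from HE1 to HP (log2 -3.24, SE 0.76, adjusted p = 0.0123, between 7.68e-13 and 0.0903), the first of which was lost without either HB library and the second without HP replicate 1. Lhx2, Lhx5 and Isl2, the other 3 tested, were at most 1.09 CPM. The call of Lhx1 from HE1 to HP (log2 -2.54) rested on 5.38 CPM in HE1 replicate 2, and without that library its log2 change was 0.58.

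**Figure D5:**
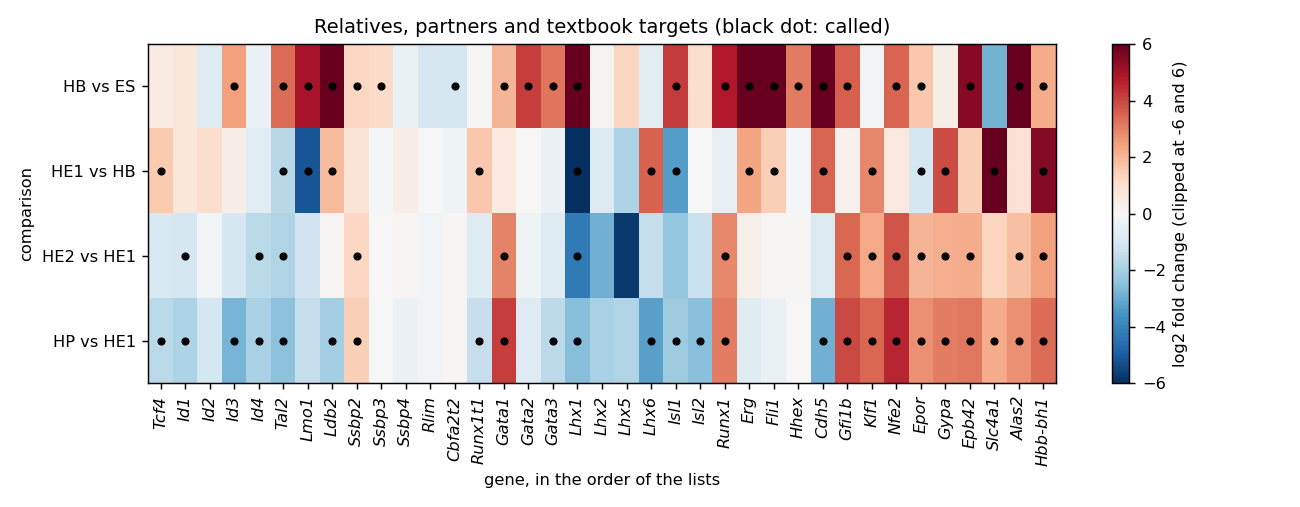
Log2 fold change (color, clipped at -6 and 6) of the 37 tested relatives, partners and textbook targets (horizontal axis, in the order of the lists) in 4 comparisons (vertical axis), where a black dot marks a called gene. The erythroid targets at the right are called higher from HE1 to HP, and Tal2, Lmo1, Lhx1 and Isl1 are called higher from ES to HB and lower from HB to HE1.

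Textbook targets of the complex made up the last list, with 14 genes, all tested. From ES to HB, 11 of 14 were called higher, against 11.5% of all genes, among them Runx1 (log2 4.83), Fli1 (log2 8.17), Erg (log2 6.84) and Cdh5 (log2 7.15), genes of blood and endothelial regulators and of an endothelial cadherin. From HB to HE1, 7 of 14 were called higher and 1, Epor, lower, against 12.7% and 8.19% of all genes. Without HE1 replicate 2 the counts were 9 and 0, against 9.6% and 7.22%. From HE1 to HE2, 9 of 14 were called higher, against 3.26% of all genes, and 7 without HE1 replicate 2, against 1.56%. Among both the 9 and the 7 were Runx1 (log2 2.87), Gfi1b (log2 3.44), Nfe2 (log2 3.79) and Klf1 (log2 2.26, as the others with all libraries), which encode hematopoietic and erythroid factors. From HE1 to HP, 10 were called higher and 1, Cdh5, lower, against 5.35% and 11.2% of all genes, and 9 and 1 without HE1 replicate 2, against 3.87% and 6.86%. Hbb-bh1, an embryonic globin gene, was at 4.59 and 4.53 CPM in HB, 279 and 136 CPM in HE1, 1224 and 1062 CPM in HE2 and 2620 and 1553 CPM in HP. Erg, Fli1 and Hhex, by contrast, were not called from HE1 to HP. Some of these genes are also erythroid, endothelial or blood markers used above, and a target was named from background knowledge and not from binding in these cells.

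Finally, genes with the most similar profile to each subunit were listed by Pearson's r of log2 CPM over the 10 libraries, among 12234 genes that reached a mean of 9 CPM in a stage. This is a description, since the libraries of a stage are not independent profiles. Closest to Tal1 were Cap2 (r = 0.997), Stat5b (r = 0.996) and Dcaf5 (r = 0.996), and closest to Lmo2 were Oat, Isca1 and Smarce1, with r from 0.993 to 0.995. Closest to Lyl1 were Il16, Pik3r1 and Gp1ba (r from 0.995 to 0.996), and to Cbfa2t3 Mef2c, Ubash3b and Wdpcp (r from 0.996 to 0.998). Within the complex, Lmo2 was most similar to Tal1 (r = 0.982, rank 28 of 12234) and then to Tcf12 (r = 0.97, rank 79), whereas Lyl1 was most similar to Cbfa2t3 (r = 0.984, rank 32) and then to Lmo4 (r = 0.978, rank 72). Tal1, Lmo2 and Tcf12 each had another of these 3 genes as the most similar subunit, and so did Lyl1, Cbfa2t3 and Lmo4. Closest to Tcf12 were Rap1gds1, Kdr and Pde1c (r from 0.992 to 0.996), and to Lmo4 1700052K11Rik, Snx9 and Msl1 (r from 0.994 to 0.996). Tcf3 was closest to H4c9, Znrd2 and Zfp593 (r from 0.983 to 0.987), and Ldb1 had no gene above r = 0.923 (Lmf2).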

How the data were processed

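Nuclear RNA-seq of HM-1 ES cells and 4 differentiated stages was used, with 2 libraries per stage and 10 in all. According to the study's methods, the authors removed ribosomal reads with RiboDetector, trimmed with Trimmomatic and used HISAT2 (v2.2.1) for alignment to the mm10 build. Per the file headers, exons were counted with featureCounts (v2.0.1) by strand, and a fragment on several genes was counted on each. The deposited count tables hold raw counts of 55487 genes. The authors also deposited a matrix with 1 expression score per stage for 15686 genes, made after normalization and averaging of the replicates, of which only the gene symbols were used here.

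The members and lists were chosen with earlier results of these data known. Genes were filtered with filterByExpr, scaled by TMM and tested with edgeR's quasi-likelihood F test (edgeR v4.0.16) with stage as the only term, all 10 libraries and 5 residual degrees of freedom, and p-values were adjusted by the Benjamini-Hochberg method over 22596 genes. A gene was called at a 2-fold change or more with an adjusted p below 0.05. SE values are the absolute log2 fold change divided by the square root of F. Log2 CPM values for correlations had a prior count of 2. Levels per kilobase divide CPM by the exon length in the count tables, so that ratios, sums and shares between genes depend on these lengths. The text names the 8 subunits, then genes of the 11 partner lists that had a call or stood beside a subunit, and the 3 genes most similar to each subunit. Start sites and their upstream bases came from RefSeq (GRCm38.p6), and exon overlaps from GENCODE M21. The fits were tested on simulated data. Alternatives were limma-voom (limma v3.58.1), DESeq2 (v1.42.0), other scalings and filters, only the 4 libraries compared, a replicate block, and each library left out in turn.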

Additional observations from a re-analysis of the deposited data

How the results depend on the processing

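The number of subunits called from ES to HB (5), from HE2 to HP (0), from HE1 to HP (3) and from ES to HP (6) stayed within 1.5 times under all alternatives. From HB to HE1 the count of 2 was between 1 and 2 with a library left out, falling to 1 without either HB library, and 4 with no fold threshold. From HE1 to HE2 the count of 2 was between 0 and 4 with a library left out, with 0 without HE1 replicate 2 or HE2 replicate 2 and 4 without HE1 replicate 1. It was 1 with only the 4 libraries compared, where the fit has fewer samples, and 4 with no fold threshold. The excess of the restricted over the ubiquitous log2 fold changes ranged from 4.59 to 5.12 from ES to HB and from 6.56 to 7.09 from ES to HP with a library left out, with the highest values without ES replicate 1, and the cause was not tested beyond Lyl1 having 33 counts in that library and 6 in the other.

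Among the changes of the 8 subunits and the called changes of the partners, direction changed for small subunit changes that were not called and for Lhx1. Partner changes that were not called could turn over as well, such as that of Epb42 from HB to HE1, which was 1.437 and ranged from -0.354 to 2.238 with a library left out. With a library left out, log2 fold changes from HB to HE1 ranged from -0.58 to 0.23 for Tal1, from -0.25 to 0.47 for Ldb1 and from -0.16 to 0.23 for Tcf12. From HE1 to HE2 they ranged from -0.38 to 0.33 for Ldb1 and from -0.309 to 0.063 for Tcf12. From HE2 to HP they ranged from -0.40 to 0.30 for Lyl1, from -0.041 to 0.164 for Ldb1, from -0.19 to 0.10 for Lmo4 and from -0.031 to 0.215 for Tcf3. From HE1 to HP they ranged from -0.32 to 0.39 for Ldb1 and from -3.38 to 0.58 for Lhx1, and from ES to HB from -0.001 to 0.08 for Tcf3. With total counts as library sizes, Lyl1 was at 0.03 and Lmo4 at 0.021 from HE2 to HP, and with the genes of the authors' matrix alone Lyl1 was at 0.008. From HE1 to HP, Ldb1 was at 0.024 with limma-voom, at 0.009 with library sizes without the 20 top genes and at 0.009 with a replicate block.

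The sample labels do not say whether equal replicate numbers share a culture. The correlation of replicate differences between stages was between -0.316 and 0.213 over 10 pairs of stages, and 2 of them exceeded 0.1. With only 2 libraries per stage, these values cannot decide whether the samples are paired. With a replicate block, the counts of subunits called were 5, 2, 2, 0, 3 and 6 in the order of ES to HB, HB to HE1, HE1 to HE2, HE2 to HP, HE1 to HP and ES to HP, as without it. The number of libraries per stage, 2, limits all tests, and counts of 33 and 6 limit the ES level of Lyl1.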
